A study of Mus musculus with 24 samples.

Results

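The genes described here encode the EF-hand calcium-binding proteins by which retinal interneurons are commonly told apart: Calb1 (calbindin), Calb2 (calretinin), Pvalb (parvalbumin), Scgn (secretagogin), Cabp1, Cabp2, Cabp5, Necab1 and Necab2. They were taken by gene symbol from the deposited table, in which all 9 were found among 56748 genes. The study asked how raised PRDM13, a zinc-finger transcription factor of developing amacrine cells, affects the mature mouse retina. PRDM13-OE mice are heterozygous for a knock-in at Rosa26, on the C57BL/6J background, in which the ubiquitous EF-1α promoter drives a reverse tetracycline transactivator and the TRE3G promoter drives tagged human PRDM13. The transgene is therefore not limited to a cell type, and the mouse Prdm13 gene is left in place. Wildtype littermates carry no knock-in. Each genotype was left untreated or was given doxycycline (dox) for 72 hours from postnatal day 28, at 2 mg/ml in drinking water that also held 10% sucrose, so the effects of dox and of sucrose cannot be told apart. There were 3 mice in each of the 4 groups, and each mouse gave a library of neural retina and a library of the remaining eye cup (retinal pigment epithelium, sclera and choroid), 24 libraries in all.

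EF-hand proteins bind calcium in a loop between a pair of helices. Some mainly buffer calcium, as calbindin, calretinin and parvalbumin do, and others change shape on binding and act on channels or receptors. In the retina, calbindin is known from horizontal cells and some amacrine cells, calretinin from AII and other amacrine cells and from ganglion cells, secretagogin and Cabp5 from bipolar cells, and parvalbumin from amacrine and ganglion cells. The Cabp proteins are relatives of calmodulin that bind voltage-gated calcium channels, and the Necab proteins are neuronal proteins with an N-terminal EF-hand, of which Necab2 is known to bind an adenosine receptor.

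The libraries held 15825059 to 24908314 counts on genes, without molecular identifiers. Expression is given as CPM (counts divided by the TMM-scaled library size of a tissue's 12 libraries). The human transgene was not analysed here, and mouse Prdm13, at 44.9 to 60.3 CPM in the 12 retinas, does not test it. The processed pseudogene Gm13394 had at least 3290 counts in 10 of the 12 PRDM13-OE libraries and at most 135 in every wildtype library. The 2 libraries labelled untreated PRDM13-OE mouse 1 had 79 counts in the retina and 62 in the eye cup, as in wildtype mice. For single members in the retina, edgeR values from tests that use that mouse are therefore mostly also given without it. The summed level of 16 lens crystallins was 5680 and 12758 CPM in 2 of the wildtype retinas with dox, 31.2 to 55.1 CPM in PRDM13-OE retinas with dox and at most 1010 CPM in the other 7 retinas. Globin and other blood markers summed to 0.706 to 1.19 CPM in PRDM13-OE retinas with dox and 21.6 to 77.9 CPM in the other 9. Xist was detected in all 3 PRDM13-OE mice with dox and was absent, with Ddx3y present, from 1 of 3 mice in each of the untreated PRDM13-OE and wildtype dox groups and from 2 of 3 untreated wildtype mice. Bulk libraries cannot separate fewer cells of a type from less RNA per cell.

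In untreated wildtype retinas, compared per length as FPKM (the deposited level, scaled by gene length and sequencing depth), Calb2 stood highest at a median of 243 (219.9 to 263 in 3 mice). Scgn followed at 45.0 (44.0 to 52.0) and Cabp5 at 26.7 (25.1 to 30.03) FPKM, each apart from the next gene in all 3 mice. Cabp1 at 22.8, Calb1 at 22.7 and Necab2 at 20.3 FPKM came next, and Calb1 overlapped both of the others over the 3 mice. Pvalb had a median of 17.6, Necab1 of 11.5 and Cabp2 of 5.60 FPKM, and these 3 did not overlap each other. Opposite-strand non-coding genes lie over Necab1 (Gm11837 and Gm11844) and Scgn (Gm11339). Their counts, at most 61 in any library against up to 1409 for Necab1 and 1917 for Scgn, cannot be told apart from the members' own where strand was not used.

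Cabp5 was the member that rose in PRDM13-OE retinas with dox. Cabp5 (ENSMUSG00000005649) spans 13132057 to 13142812 on the plus strand of chromosome 7 (GRCm39). Its level was 145.2, 147.2 and 135.7 CPM in the 3 PRDM13-OE mice with dox, and 78.8, 77.8 and 78.8 CPM in the wildtype mice with dox. Untreated PRDM13-OE retinas had 83.5, 78.4 and 75.0 CPM, and untreated wildtype retinas had 68.8, 74.9 and 82.2 CPM. Every retina with both the knock-in and dox thus lay above all 9 of the others, which overlapped among themselves. The rise against wildtype with dox was 1.81-fold (95% interval 1.67 to 1.97), a log2 fold change of 0.86 ± 0.055 (SE), with an adjusted p of 1.95e-06 (edgeR quasi-likelihood test). Against untreated PRDM13-OE retinas it was 0.85 ± 0.065 on the log2 scale (adjusted p = 4.88e-06), and 0.89 without the mouse labelled untreated PRDM13-OE 1. Dox in wildtype retinas gave a log2 difference of 0.06 (interval -0.10 to 0.21). The knock-in without dox gave 0.07 (interval -0.10 to 0.25), and 0.03 without that mouse. The difference between the 2 dox effects, tested as an interaction over the 12 retinas, was 0.79 ± 0.097 (adjusted p = 8.88e-05), and 0.84 without that mouse. None of these folds reached the study's cutoff of 1 on the log2 scale.

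**Figure D1:**
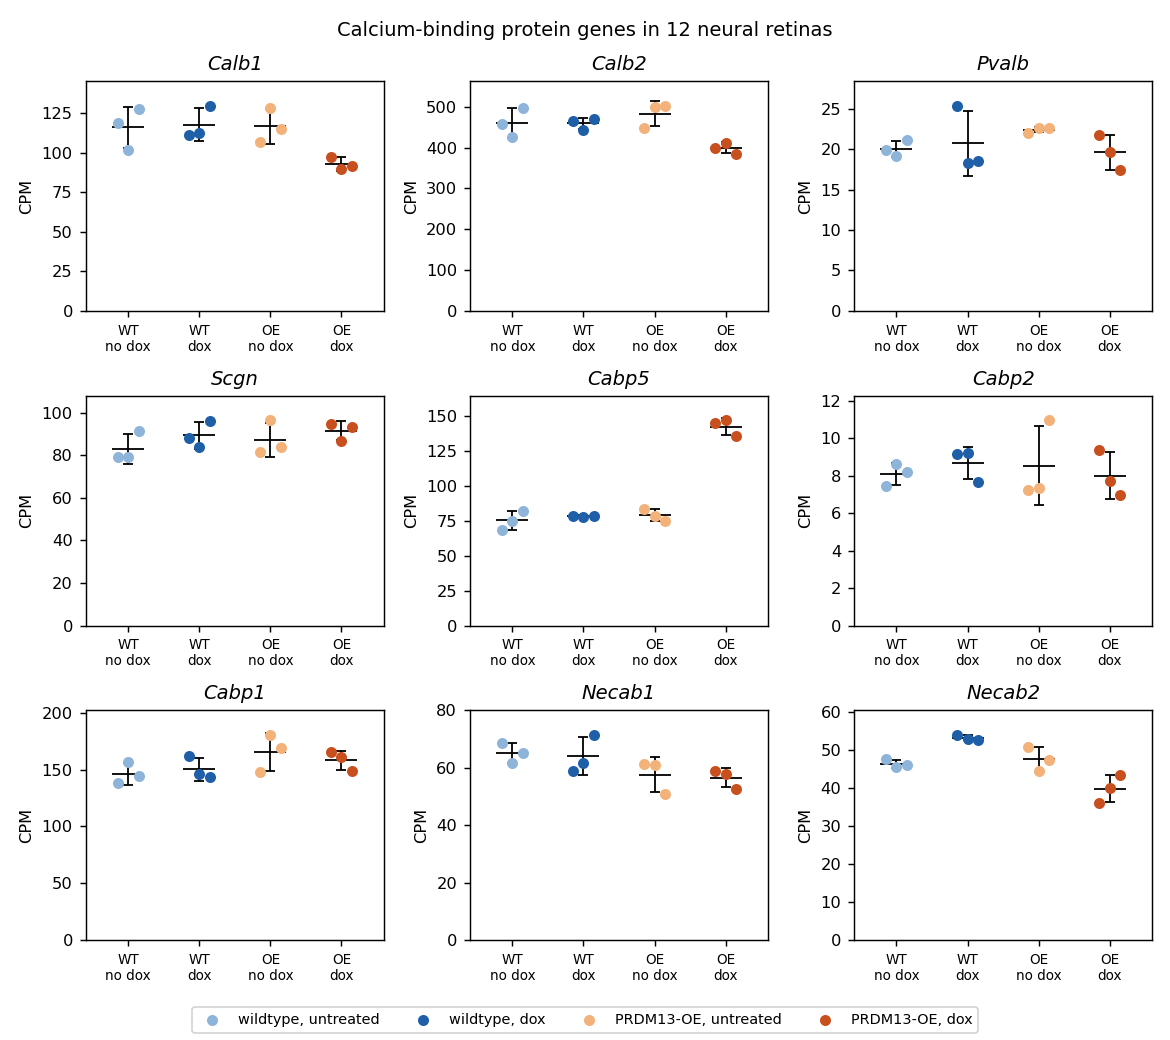
Level of each gene (vertical axis, CPM, starting at 0) in the 12 neural retinas, by genotype and dox. Points are mice and bars are the mean with its SD (n = 3), and Cabp5 stands at 135.7 to 147.2 CPM in PRDM13-OE retinas with dox and at 68.8 to 83.5 CPM in the other 9.

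The promoters of Cabp5 and Cabp2 are shown because, among the members' promoters in the RefSeq table, they alone held the letters TAATCC, the core bound by the photoreceptor and bipolar cell factors Crx and Otx2. The table (GRCm38.p6) held Cabp1, Cabp2, Cabp5, Necab2, Pvalb and Scgn, with 2 promoters each for Cabp1, Cabp2 and Pvalb. Calb1, Calb2 and Necab1 had no entry. TAATCC was searched on both strands (GGATTA on the other), in windows of 250 bases before to 50 after a start. The stretches printed are the 250 bases before the start, matched exactly in GRCm39 and written 5′ to 3′ on the gene's strand, with the motif in capitals. The Cabp5 stretch is chr7:13131830-13132079 on the plus strand, of which the last 23 bases lie in the first exon of the annotated gene. The Cabp2 stretch is chr19:4133269-4133518 on the plus strand. It lies inside the gene, before an internal start, with 29 of its bases in exons and 0 in coding sequence.
Cabp5: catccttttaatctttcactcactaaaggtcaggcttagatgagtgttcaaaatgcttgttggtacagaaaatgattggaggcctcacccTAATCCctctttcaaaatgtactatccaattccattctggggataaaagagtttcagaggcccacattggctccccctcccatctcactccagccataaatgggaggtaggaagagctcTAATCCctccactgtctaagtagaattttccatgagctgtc
Cabp2: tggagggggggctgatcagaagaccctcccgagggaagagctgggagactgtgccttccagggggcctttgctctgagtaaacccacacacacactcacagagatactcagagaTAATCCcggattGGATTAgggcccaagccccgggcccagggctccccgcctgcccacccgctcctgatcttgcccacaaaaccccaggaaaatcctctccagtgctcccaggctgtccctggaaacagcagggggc
The matches begin 160 and 41 bases before the start in Cabp5, and 136 and 124 bases before it in Cabp2. TAATCC was found in 7.06% of the 32851 mouse promoters of the table, and at least 2 copies in 0.359%. The E-box CAGCTG, which reads alike on both strands, was found in 16.3% of all promoters and in 0 of the 9 member windows. The study's factor was not tested for binding at any of these sequences.

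Scgn and Cabp2, which are also known from bipolar cells, did not pass the test. Scgn (ENSMUSG00000021337) spans 24137439 to 24175197 on the minus strand of chromosome 13 (GRCm39). Scgn had 94.7, 86.6 and 93.4 CPM in PRDM13-OE retinas with dox and 87.9, 84.0 and 96.1 CPM in wildtype retinas with dox. The groups overlapped, and the log2 difference of 0.03 had an interval of -0.11 to 0.17. Cabp2 (ENSMUSG00000024857) spans 4131578 to 4137340 on the plus strand of chromosome 19 (GRCm39). Cabp2, which has been linked to hearing through the calcium channels of hair cells, had 6.96 to 9.36 CPM in PRDM13-OE retinas and 7.68 to 9.18 CPM in wildtype retinas with dox. At this low level its interval was wider, -0.44 to 0.20 around -0.12.

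The list of 12 bipolar markers was lower in the same comparison, with 7 lower and 0 higher at an adjusted p under 0.05, and a median log2 fold change of -0.38 against 0.006 over all genes tested. Among all 20560 genes tested, 7.51% were lower and 5.01% higher by that rule. Lists of other cells moved too. Of 14 rod markers 10 were lower and 0 higher, of 12 cone markers 8 were lower and 2 higher. Of 10 Muller glia markers 5 were lower and 2 higher. Trpm1, the cation channel of ON bipolar cells, fell by 0.62 on the log2 scale, and Grm6, the glutamate receptor upstream of it, fell by 0.61. Prkca, the rod bipolar marker, did not pass, at -0.11 (interval -0.21 to -0.01). Taken per 100 counts of the 12 bipolar markers, Cabp5 was at 10.4 to 10.9 in PRDM13-OE retinas with dox and at 4.18 to 5.20 in the other 9, a 2.25-fold ratio of geometric means. This ratio was not tested, since its direction follows from the levels of Cabp5 and of the markers already given. Against wildtype retinas with dox alone the ratio was 2.27-fold. Trpm1, a gene of the list, is also known from pigment cells. Per 100 counts of Calb2, Cabp5 was at 35.2 to 36.3 in PRDM13-OE retinas with dox and 14.9 to 18.6 in the other 9, and per 100 counts of Scgn at 145.2 to 169.9 and 81.3 to 102.6, both denominators being chosen after the values were seen.

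**Figure D2:**
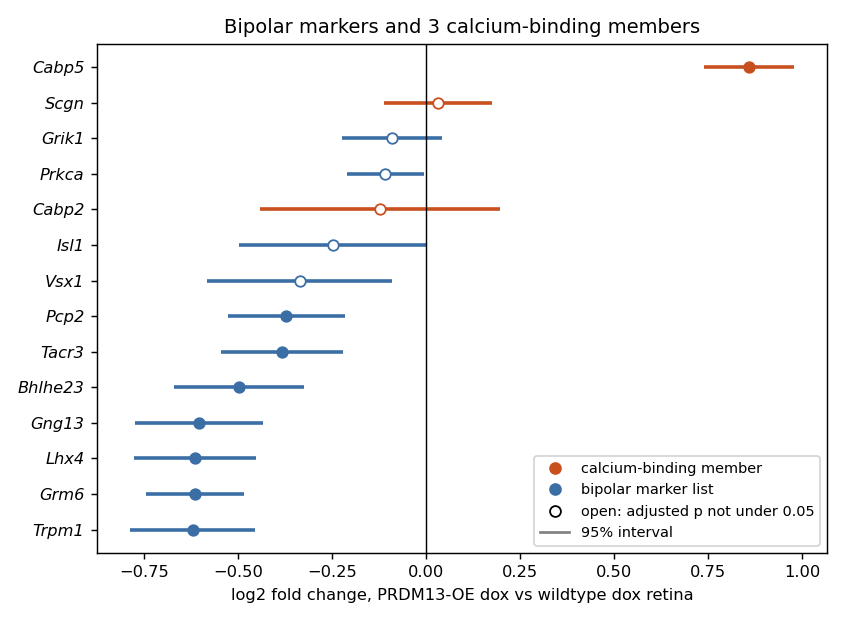
Log2 fold change in PRDM13-OE retinas with dox against wildtype retinas with dox (horizontal axis) for 11 of the 12 bipolar markers and 3 members, with 95% intervals; filled points have an adjusted p under 0.05 and open points do not. Cabp5 lies at 0.86, Scgn and Cabp2 have intervals that span 0, and 7 bipolar markers have filled points below 0.

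Calb1, Calb2 and Necab2 fell in PRDM13-OE retinas with dox, by less than Cabp5 rose. Calb1 (ENSMUSG00000028222) spans 15881264 to 15908064 on the plus strand of chromosome 4 (GRCm39). Calb1 had 97.7, 89.9 and 91.4 CPM in PRDM13-OE retinas with dox and 111.2, 112.7 and 129.9 CPM in wildtype retinas with dox. The groups did not overlap, and the fold was 0.786 (interval 0.707 to 0.873, adjusted p = 0.00673). Untreated PRDM13-OE retinas had 106.6, 128.5 and 115.3 CPM of Calb1 and untreated wildtype retinas 119.0, 101.7 and 127.6 CPM. The fold against untreated PRDM13-OE was 0.795 (adjusted p = 0.0204), with a log2 difference of -0.39 (adjusted p = 0.00514) without the mouse labelled untreated PRDM13-OE 1. It no longer passed against untreated PRDM13-OE without PRDM13-OE dox mouse 2 (adjusted p = 0.129) or 3 (0.106) or untreated PRDM13-OE mouse 2 (0.0626), or with library size scaling (0.0614). With the Xist level as a covariate, it passed neither against wildtype with dox (0.0531) nor against untreated PRDM13-OE (0.0720). Over all alternatives its log2 difference was -0.53 to -0.26 against wildtype with dox and -0.39 to -0.26 against untreated PRDM13-OE. The interaction did not pass, at -0.35 (interval -0.61 to -0.09, adjusted p = 0.176). Without the mouse labelled untreated PRDM13-OE 1 it was -0.41 and did not pass either (adjusted p = 0.102). Against wildtype with dox, the horizontal cell markers, a list of 9, had 3 lower and 0 higher at an adjusted p under 0.05, with a median of -0.30. Over all genes 7.51% were lower and 5.01% higher. Septin4 fell by 0.87 and Lhx1, a transcription factor of horizontal cells, by 0.70 on the log2 scale. Against untreated PRDM13-OE and in the interaction 1 of the 9, Septin4, was lower and 0 were higher. Lhx1 did not pass there, at -0.28 and -0.40 (adjusted p = 0.380 and 0.396 by edgeR).

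Calb2 (ENSMUSG00000003657) spans 110864134 to 110894842 on the minus strand of chromosome 8 (GRCm39). Calb2 had 400.0, 411.9 and 385.2 CPM in PRDM13-OE retinas with dox and 463.7, 443.2 and 470.1 CPM in wildtype retinas with dox, which did not overlap. The fold was 0.866 (interval 0.806 to 0.931, adjusted p = 0.0145). The untreated groups had 447.7, 498.1 and 502.4 CPM (PRDM13-OE) and 458.1, 425.1 and 497.7 CPM (wildtype), and the fold against untreated PRDM13-OE was 0.826 (adjusted p = 0.0149), with a log2 difference of -0.33 (adjusted p = 0.00317) without the mouse labelled untreated PRDM13-OE 1. With total library size in place of TMM factors, Calb2 was at -0.12 on the log2 scale against wildtype with dox and did not pass (adjusted p = 0.135). It also did not pass with a lens crystallin covariate (0.346), with an Xist covariate (0.121), with all 12 retinas in 1 fit (0.0514) or without PRDM13-OE dox mouse 3 (0.0562). Against untreated PRDM13-OE its adjusted p was 0.0710 with library size and 0.0527 to 0.0987 without any single PRDM13-OE dox mouse. Over all alternatives its log2 difference was -0.24 to -0.12 against wildtype with dox and -0.33 to -0.21 against untreated PRDM13-OE. The interaction was -0.27 (interval -0.45 to -0.09) and did not pass by edgeR (adjusted p = 0.127), while by DESeq2 it was -0.28 (adjusted p = 0.0351). Without the mouse labelled untreated PRDM13-OE 1 it was -0.32 by edgeR and did not pass (adjusted p = 0.0542). Among 13 amacrine markers, 3 fell and 0 rose against wildtype with dox, with a median of -0.10. Over all genes 7.51% were lower and 5.01% higher. Gad1 and Gad2, the GABA-synthesising enzymes, were among the 3 (-0.30 and -0.27). Against untreated PRDM13-OE 2 of the 13 fell (2.96% of all genes), and Gad2 did not pass (-0.21, adjusted p = 0.242 by edgeR). In the interaction 0 of the 13 passed (1.19% higher and 1.83% lower over all genes). Among 10 ganglion cell markers, 3 fell and 0 rose against wildtype with dox, with a median of -0.16. Against untreated PRDM13-OE and in the interaction 0 of the 10 passed.

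Necab2 (ENSMUSG00000031837) spans 120173458 to 120199379 on the plus strand of chromosome 8 (GRCm39). Necab2 had 36.1, 40.0 and 43.4 CPM in PRDM13-OE retinas with dox and 54.0, 53.0 and 52.7 CPM in wildtype retinas with dox. The groups did not overlap, and the fold was 0.746 (interval 0.671 to 0.829, adjusted p = 0.00208). Untreated PRDM13-OE retinas had 50.8, 44.5 and 47.2 CPM and untreated wildtype retinas 47.5, 45.5 and 46.1 CPM, so the wildtype retinas with dox were also above all 6 untreated ones. Wildtype with dox against untreated wildtype was 0.20 on the log2 scale and did not pass (adjusted p = 0.322), nor did PRDM13-OE with dox against untreated PRDM13-OE (-0.26, adjusted p = 0.131, and -0.21, adjusted p = 0.269, without the mouse labelled untreated PRDM13-OE 1). The interaction was -0.45 ± 0.103 (adjusted p = 0.0199), and -0.40 (adjusted p = 0.0445) without that mouse. With the lens crystallin level as a covariate, Necab2 was at -0.37 against wildtype with dox and at -0.42 in the interaction, and no longer passed in either (adjusted p = 0.159 and 0.0983). The wildtype dox retina with the lowest crystallin sum, 168 CPM in mouse 3, had 52.7 CPM of Necab2.

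The other 3 members did not pass in any retina comparison of groups. Necab1 (ENSMUSG00000040536) spans 14952245 to 15149794 on the minus strand of chromosome 4 (GRCm39). Necab1 had 52.7 to 58.9 CPM in PRDM13-OE retinas with dox and 58.9 to 71.4 CPM in their wildtype counterparts. The log2 difference was -0.19 (interval -0.35 to -0.02, adjusted p = 0.151). Without dox the difference was -0.17 (interval -0.36 to 0.02, adjusted p = 0.995), with 50.7 to 61.3 CPM in PRDM13-OE and 61.6 to 68.5 CPM in wildtype retinas, which did not overlap, and -0.22 (adjusted p = 0.766) without the mouse labelled untreated PRDM13-OE 1. The interaction for Necab1 was -0.0042 (interval -0.26 to 0.25), and 0.04 without that mouse. Cabp1 (ENSMUSG00000029544) spans 115306748 to 115332440 on the minus strand of chromosome 5 (GRCm39). Cabp1 is known from the brain and the inner retina as a partner of Cav1 channels and IP3 receptors. With dox it had 148.5 to 165.1 CPM in PRDM13-OE and 143.1 to 161.9 CPM in wildtype retinas, a difference of 0.07 (interval -0.07 to 0.21). Without dox the difference was 0.18 (interval 0.004 to 0.36, adjusted p = 0.995 by edgeR), and 0.26 (adjusted p = 0.750) without that mouse. Pvalb (ENSMUSG00000005716) spans 78075314 to 78090600 on the minus strand of chromosome 15 (GRCm39). With dox Pvalb had 17.5 to 21.8 CPM in PRDM13-OE and 18.3 to 25.4 CPM in wildtype retinas, and its interval of -0.37 to 0.20 was the second widest of the 9 after Cabp2.

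Counted over the 9 genes, 0 were called in PRDM13-OE with dox against wildtype with dox by the study's cutoffs (adjusted p under 0.05 and log2 fold change past 1), by edgeR and by DESeq2. Over all genes tested, edgeR called 0.905% higher and 1.50% lower, and DESeq2 called 0.652% and 1.26%. By adjusted p alone 1 member was higher and 3 were lower, beside the 5.01% and 7.51% of all genes given above, and 5 members had an unadjusted p under 0.05, as did 5479 of all 20560 genes (26.6%). With library size scaling, which moved the median of all genes from 0.006 to 0.09, the calls over all genes were 279 higher and 269 lower, against 186 and 309 with TMM, and 10.6% were higher and 4.90% lower by adjusted p. Against untreated PRDM13-OE, 1 member was higher and 2 were lower (over all 20603 genes, 2.04% and 2.96%), and 4 had an unadjusted p under 0.05 (3216 of all genes, 15.6%). By either tool 0 were past the fold cutoff (over all genes, 0.417% higher and 0.621% lower by edgeR, and 65 and 122 genes by DESeq2). That comparison and the one with wildtype share the PRDM13-OE retinas with dox. For dox in wildtype retinas and for the knock-in without dox, 0 members passed by edgeR or DESeq2. By edgeR 1 gene over all those tested passed in each, higher (0.00485% and 0.00484%). DESeq2 passed 0.334% of all genes higher and 0.116% lower for dox, and 0.0145% and 0.00484% for the knock-in. By edgeR 1 member in each had an unadjusted p under 0.05 (1922 and 778 of all genes, 9.32% and 3.76%). In the interaction 1 was higher and 1 lower (1.19% and 1.83% over all genes), with 0 past the fold cutoff (0.355% and 0.515%), and 4 at an unadjusted p under 0.05 (3247 of all genes, 14.4%). DESeq2 passed 3 members in the interaction, Calb2 being the third, where 1.58% of all genes were higher and 2.54% lower. Without the mouse labelled untreated PRDM13-OE 1, the members that passed by adjusted p were 1 higher and 2 lower against untreated PRDM13-OE, 0 for the knock-in without dox, and 1 higher and 1 lower in the interaction.

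**Figure D3:**
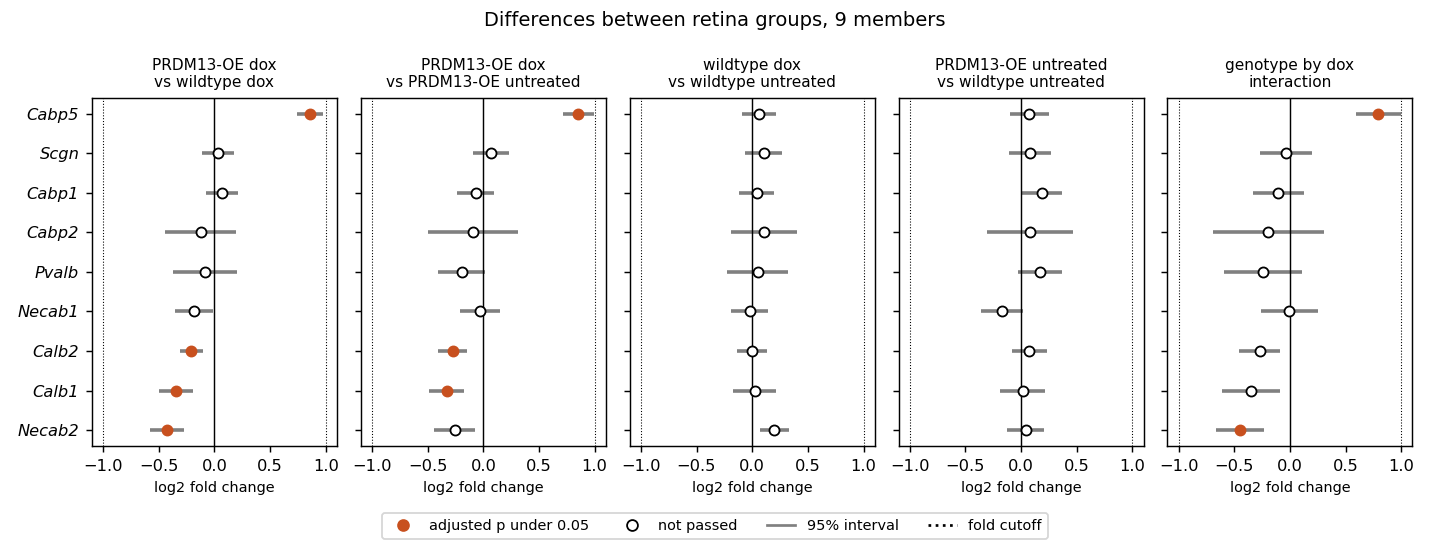
Log2 fold change of the 9 members in 4 comparisons of retina groups and in the interaction of genotype and dox (horizontal axis), with 95% intervals from edgeR. Filled points have an adjusted p under 0.05, dotted lines mark the fold cutoff of 1 in either direction, and no member lies past it.

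Other genes of calcium handling were taken from 3 lists and described by the same comparison of retinas with dox, in which 5.01% of all genes were higher and 7.51% lower by adjusted p. Of 27 other EF-hand genes, 26 were tested, of which 1 rose and 4 fell, with a median of -0.12. Guca1a, the activator of guanylate cyclase in photoreceptors, was the only one called, at -1.81 on the log2 scale (adjusted p = 0.0133). Its counts were low, at 0.220 to 1.02 CPM in PRDM13-OE and 1.91 to 2.12 CPM in wildtype retinas with dox. Guca1b, its relative, fell by 0.36. Recoverin (Rcvrn) and S100a10 fell by 0.28 and 0.35, and Hpcal4 rose by 0.27. Cabp4, the Cabp protein of photoreceptor terminals, was at -0.03 (interval -0.15 to 0.10). Of 15 channels and receptors that such proteins bind, 1 rose (Cacna1f, the photoreceptor calcium channel, 0.27) and 1 fell (Itpr3, an IP3 receptor, -0.58), which is near those shares. Of 13 calcium pumps and exchangers, 8 fell and 0 rose, with a median of -0.29. Slc24a1, the exchanger of rod outer segments, fell by 0.81, and Atp2b3, a plasma membrane pump, by 0.47. Against untreated PRDM13-OE 1 of the 13 fell and 0 rose (median -0.19), as in the interaction (median -0.27). Rod markers summed to 58116 to 65347 CPM in these PRDM13-OE retinas and 77647 to 79912 CPM in wildtype retinas with dox, and their part in the lower values of other genes was not tested.

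By likeness of pattern over the 12 retinas, measured as Pearson's r of log2 CPM among genes with a mean of at least 5 CPM, Cplx3 was nearest to Cabp5 (r = 0.984). Cplx3 encodes complexin 3, a synaptic protein of ribbon synapses, and had 606 to 640 CPM in PRDM13-OE retinas with dox and 477 to 517 CPM in the other 9. Ccdc177 (0.979) and Amacr (0.977) came next. Nearest to Necab2 were Sardh (0.959), Chrnb4 (0.949) and Gldc (0.942). Gldc, the glycine decarboxylase, had 12.5 to 23.1 CPM in PRDM13-OE retinas with dox and 42.3 to 64.4 CPM in the other 9. Kcnd3, a potassium channel gene, was nearest to Calb1 (0.966), and Olfm2 to Calb2 (0.923). All these r are descriptions over libraries that share their groups, the mouse labelled untreated PRDM13-OE 1 included.

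Of the 9 members, 7 were higher and 1 lower in untreated wildtype retinas than in the eye cups of the same 3 mice by the study's cutoffs (over all 21979 genes, 19.3% and 25.9%). The 7 differed by 2.26 (Cabp1) to 3.01 (Calb1) on the log2 scale. The median of all genes was -0.06 with TMM and 0.24 with library size, which moved the calls over all genes from 4238 higher and 5687 lower to 5540 and 4869. Pvalb was lower in the retina, at -3.40 on the log2 scale (adjusted p = 6.89e-05). Its deposited FPKM was 137 to 278 in the eye cups and 16.6 to 18.7 in the retinas. Over all 12 mice the eye cup held more Pvalb FPKM than the retina in 12 of 12, with a median of 769.7% of the retina's value. Necab2 was also lower in the retina, at -0.88 (adjusted p = 0.0325; over all genes 32.5% were lower and 29.0% higher by adjusted p), short of the fold cutoff, and was higher in the eye cup in 9 of 12 mice. For the other 7 genes the eye cup was below the retina in 12 of 12 mice, at medians of 18.6% (Calb1) to 32.04% (Cabp1). Their highest values in any mouse were 61.0% (Necab1) to 99.98% (Scgn and Cabp5), so in some mice the tissues hardly differed. Without eye cup 3 of the untreated wildtype mice, 5 members rather than 8 were called, with Calb1, Calb2 and Scgn at adjusted p of 0.0569 to 0.0986. Calb2 and Scgn also lost their calls without any single retina (adjusted p of 0.0651 to 0.0817), and Necab2 no longer passed by adjusted p without any single retina, with library size scaling or with all 24 libraries in 1 fit (0.0774 to 0.106).

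In the eye cups, those 7 genes were high where rod markers were high. Over the 12 eye cups, Pearson's r of log2(CPM + 0.5) with the summed level of 14 rod markers was 0.95 for Calb1, 0.91 for Calb2, Cabp1 and Cabp2, 0.88 for Scgn and 0.84 for Cabp5, and it was 0.75 for Necab1. Spearman's rho was 0.84 to 0.96 for the 7 genes, and the largest adjusted permutation p was 0.013 for r and 0.0034 for rho, over 27 relations. Without the 2 eye cups farthest from the median of the rod sum (untreated wildtype 2 and PRDM13-OE dox 2), r was 0.75 to 0.95, and it was also 0.75 to 0.95 without the mouse labelled untreated PRDM13-OE 1. With the summed level of 12 pigment epithelium markers r was -0.67 to -0.86, and for Cabp5 (-0.86) and Necab1 (-0.79) its size exceeded that with the rod sum. The largest adjusted permutation p for pigment epithelium was 0.0274 by r, and by rho 5 of the 7 passed, with Calb1 and Calb2 at 0.0556. Without the 2 farthest eye cups (PRDM13-OE dox 1 and 3) that r was -0.73 to -0.86. With the summed level of 13 muscle markers r was -0.60 to -0.68 (adjusted permutation p of at most 0.0493), but by rho 4 of the 7 passed, with Scgn at 0.0556, Cabp2 at 0.116 and Cabp5 at 0.117, and r was -0.40 to -0.51 without the 2 farthest (untreated PRDM13-OE 3 and PRDM13-OE dox 2). The 3 sums are shares of the same libraries, so they are not independent. Calb2, for example, ran from 8.33 CPM in untreated wildtype eye cup 2, where the rod sum was 3498 CPM, to 288 CPM in wildtype dox eye cup 1, where it was 51540 CPM. The permutations shuffled all 12 eye cups across the 4 groups, so their p mix differences between groups with those between mice. Groups of 3 are too few for a value within each group, and a value pooled within groups was not computed. The rod sums of the wildtype eye cups with dox, 27301 to 51540 CPM, were above those of all 6 untreated ones (3498 to 26038 CPM).

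Pvalb went with muscle instead. Its r with the summed level of 13 skeletal muscle markers was 0.90 (rho 0.87, adjusted permutation p = 0.000756 and 0.00153), and 0.83 without the 2 farthest eye cups (untreated PRDM13-OE 3 and PRDM13-OE dox 2). With the rod sum its r was -0.72. Parvalbumin is well known as the calcium buffer of fast muscle fibres, and the genes of nearest pattern in the eye cups were Actn3 (r = 0.969), the actinin of fast fibres, Mylpf, a fast myosin light chain (0.953), and Cox7a1 (0.949). The muscle sum was 453 to 3690 CPM in the eye cups and 106 to 234 CPM in the retinas, and Tnnc2, a fast troponin on that list, was at or under 3 counts in every library of both tissues. Necab2 passed with none of the 3 lists over the 12 eye cups (r of 0.06 with rod, -0.17 with muscle and 0.05 with pigment epithelium markers, adjusted permutation p of at least 0.648). Without the 2 farthest eye cups of each list these r were 0.52, -0.32 and -0.33, so the value with rod rests on untreated wildtype 2 and PRDM13-OE dox 2. The genes nearest to Necab2 were Col23a1 (0.958), F5 (0.950) and Il33 (0.946).

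**Figure D4:**
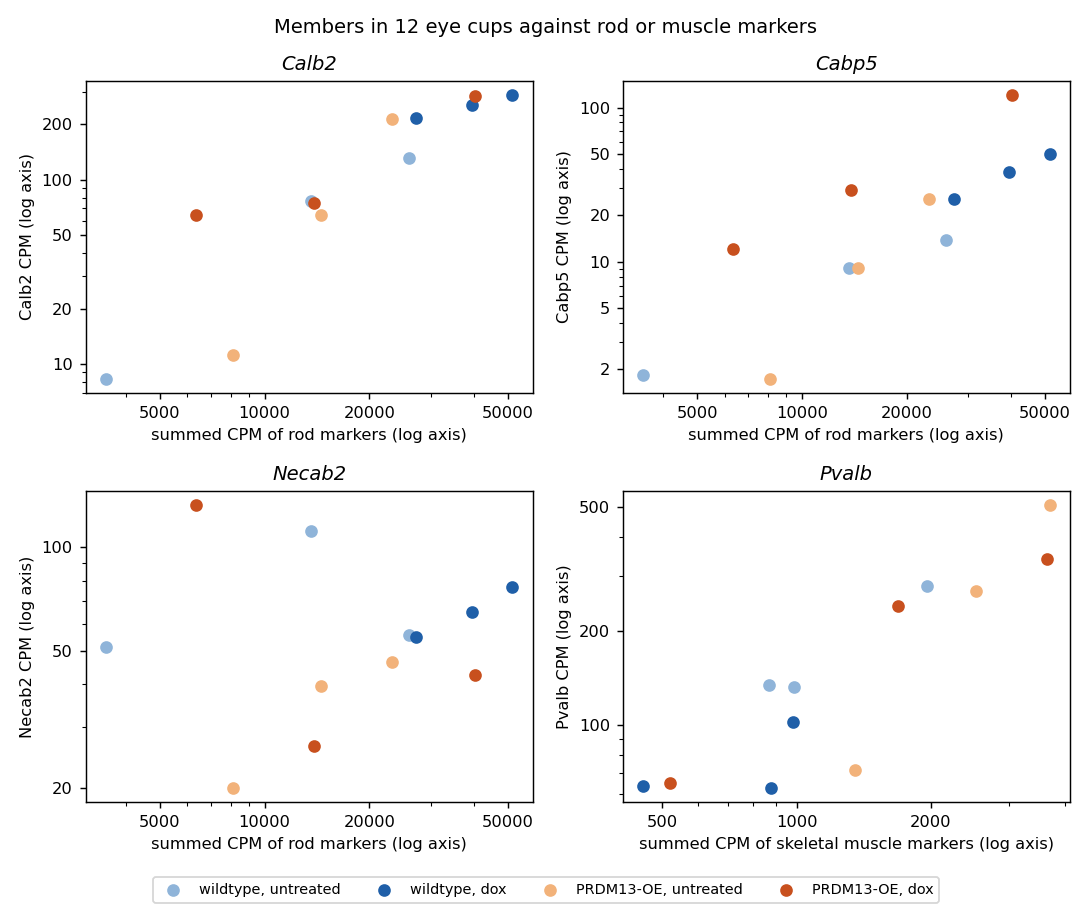
Level of Calb2, Cabp5 and Necab2 against the summed level of 14 rod markers, and of Pvalb against that of 13 skeletal muscle markers, in the 12 eye cups (both axes in CPM, log scale; colours are the 4 groups). Calb2 and Cabp5 rise along the rod axis (r = 0.91 and 0.84), Necab2 has an r of 0.06 (0.52 without the 2 eye cups farthest along that axis), and Pvalb rises along the muscle axis (0.90).

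Between groups of eye cups, 0 of the 9 members passed by edgeR in any of the 4 comparisons (over all genes, 0.00460% were higher and 0.0138% lower for PRDM13-OE against wildtype with dox, and 0.0139% were lower for PRDM13-OE with dox against untreated PRDM13-OE), with 1 at an unadjusted p under 0.05 for PRDM13-OE against wildtype with dox (8.24% of all genes), 6 for wildtype with dox against untreated (29.9%), 1 for the knock-in without dox (1.87%) and 0 for PRDM13-OE with dox against untreated (4.14%). Without the mouse labelled untreated PRDM13-OE 1, 0 members passed in the last pair of comparisons. For PRDM13-OE against wildtype with dox, 5 members passed without PRDM13-OE dox mouse 3, Pvalb higher and Calb1, Calb2, Cabp1 and Scgn lower, while the calls over all genes went from 1 higher and 3 lower to 548 and 1219 (2.58% and 5.74%). For wildtype with dox against untreated wildtype, DESeq2 called Cabp1, Cabp2, Cabp5 and Necab1 higher and Pvalb lower (0 members in the other 3 comparisons), and over all 21799 genes it called 1381 higher and 598 lower (6.34% and 2.74%), where edgeR called 0. Without untreated wildtype mouse 1, edgeR passed Cabp1, Cabp2 and Cabp5 higher and Pvalb lower, with 1536 higher and 455 lower over all genes. In that comparison 6 of the 9, among them Cabp5 (25.4 to 50.1 against 1.85 to 13.8 CPM) and Pvalb (62.6 to 101.9 against 132.6 to 278 CPM), had an unadjusted p under 0.05 without overlap, where 6517 of all genes had such a p, beside the higher rod sums given above and pigment epithelium sums of 10088 to 22254 against 28845 to 46687 CPM, whose part was not tested.

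Cabp5 in the eye cups of PRDM13-OE mice with dox was 29.3, 12.0 and 120.2 CPM, against 50.1, 38.1 and 25.4 CPM in wildtype mice with dox. The groups overlapped, and the interval of the log2 difference, -1.20 to 2.32, held both 0 and the size seen in the retina. The difference was 0.56, and -0.83 without PRDM13-OE dox mouse 3. Per 100 counts of Calb2 the values were 39.0, 18.7 and 42.0, against 10.5 to 22.2 in the other 9 eye cups, and per 100 counts of Scgn they were 104.5 to 146.4 against 57.0 to 254.5. The groups overlapped on both measures, which were not tested. The overlap came from eye cups with few counts. Untreated wildtype 2 held the 22.2 and the 254.5, and untreated PRDM13-OE 3 had 186.7 per Scgn, each with 28 counts of Cabp5. The next highest values, both in wildtype dox 1, were 17.4 per Calb2 and 101.4 per Scgn. The bipolar marker sum was not used here, since Trpm1 had 233.6 to 660.6 CPM in the eye cups and 183.3 to 326.2 CPM in the retinas.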

How the data were processed

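RNA sequencing (poly(A) RNA, Illumina) was analysed for 24 libraries. The authors deposited raw read counts per gene, without normalization, which entered every test, and the FPKM values they computed from gene length and counts, used only to compare levels between genes. HISAT2, CASAVA and GRCm39 are named in the submitters' processing notes; versions, the counting tool and the use of strand are not given in the sources used here. The authors' own fold changes and p-values were not used.

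The quasi-likelihood test of edgeR 4.0.16 (R 4.3.3) was run on counts scaled by TMM, for genes whose counts in the fitted libraries summed to 10 or more, with Benjamini-Hochberg adjustment across every tested gene. A call required a log2 fold change past 1, up or down, and an adjusted p under 0.05. DESeq2 1.42.0, other scalings, filters, covariates, a replicate block and leaving out each library were alternatives. Samples were grouped by genotype, dox and tissue from the labels, with 3 mice a group. Permutation tests of correlations used 100000 resamples (scipy 1.17.1). The members, gene lists and tests were chosen with earlier results of these data known. The rule named all 9 members, the called genes of each list and the 3 genes most like each member in each tissue; of the last, only some are printed, and other cell types' markers are mostly given as lists. Other list genes, Cplx3's and Gldc's levels and Gm13394 were chosen after their values were seen. Depth of 15825059 to 24908314 counts per library limits low genes such as Cabp2, and intervals of folds cover the spread between mice. Over all 276 pairs of libraries, none matched within sampling noise. Tests of PRDM13-OE against wildtype with dox were tried on simulated counts with 200 changed genes. At a log2 change of 0.85, edgeR recovered 196 in retinas and 0 in eye cups. At a change of 2 it recovered 146 in eye cups. In eye cups DESeq2 recovered 9 with 24 false calls at 0.85, and 185 with 54 false calls at 2. Mouse numbers name different mice across groups, and the correlations of same-numbered deviations were not over 0.1 in every pair of any comparison; retina and eye cup of a number come from the same mouse. Some marker genes are not reported here by name. Promoters are from RefSeq (GRCm38.p6).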

Additional observations from a re-analysis of the deposited data

Results flagged for a closer look

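The test of the difference itself passed for a pair of members. The effect of dox on Cabp5 differed between the genotypes by 0.79 on the log2 scale (edgeR interaction over 12 retinas, adjusted p = 8.88e-05), with all 3 PRDM13-OE retinas with dox above the other 9. The effect of dox on Necab2 differed by -0.45 (adjusted p = 0.0199), where the wildtype retinas with dox were above all 6 untreated retinas and the PRDM13-OE retinas with dox below them. The Necab2 interaction did not pass with the lens crystallin level as a covariate (-0.42, adjusted p = 0.0983).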

How the results depend on the processing

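No member that passed changed direction under any alternative run. Cabp5 in PRDM13-OE against wildtype eye cups with dox, at 0.56 without passing, was -0.11 with a replicate block, -0.83 to 1.01 with a library left out (-0.83 without PRDM13-OE dox mouse 3), and passed in none of these. Without the fold cutoff, 4, 3 and 2 members passed against wildtype with dox, against untreated PRDM13-OE and in the interaction in the retina. By adjusted p, a lens crystallin or an Xist covariate each left 2 of the 4 against wildtype with dox (all genes went from 5.01% higher and 7.51% lower to 0.563% and 1.47%, and to 2.87% and 4.55%), library size scaling left 1 of the 3 against untreated PRDM13-OE (from 2.04% and 2.96% to 3.29% and 2.29%), and in the interaction a lens crystallin covariate gave 1 and no count filter gave 4 (from 1.19% and 1.83% to 0.781% and 1.33%, and to 1.80% and 2.84%). For wildtype eye cups with dox against untreated, DESeq2 gave 5 members, no filter 3 and library size 1. Leaving out a library gave 3 to 4 members against wildtype with dox in the retina, 1 to 3 against untreated PRDM13-OE (1 without PRDM13-OE dox mouse 2 or 3), 0 to 5 for PRDM13-OE against wildtype eye cups with dox (5 without PRDM13-OE dox mouse 3), 0 to 4 for dox in wildtype eye cups (4 without untreated mouse 1), and 6 to 9 between tissues. With the fold cutoff as well, the members called between tissues were 5 to 9. Cabp5 per bipolar marker in retinas, a log2 ratio of 1.17, was 1.19 against wildtype with dox alone, 0.80 per Scgn and 1.11 per Calb2, alternatives chosen after seeing the data, and 1.15 to 1.19 with a library left out. A replicate block on the mouse number changed no count of members that passed (4, 3 and 2 in the retina, 0 in the eye cups) and gave 9 between tissues, where the numbers name the same mice. Cabp5 passed in all retina alternatives, at 0.83 to 0.95 against wildtype with dox. Calb1 against wildtype did not pass with the Xist covariate (adjusted p = 0.0531), nor did Calb2 with 4 alternatives or without 1 library. The cause was not tested. In eye cups the spread between mice, and for Cabp2 and Necab1 low counts, limit what could be seen.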
